A study of Mus musculus with 6 samples.

Results

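The genes described here carry dietary fat, cholesterol and vitamin A through the absorptive cells of the small intestine. There were 34 of them, chosen by symbol as apolipoproteins, fatty acid binding proteins, enzymes of triglyceride synthesis, and proteins of sterol and retinoid uptake, out of 56884 genes counted. All 34 had an entry in the count files. RNA sequencing read counts per gene were available for 6 libraries of organoids, epithelial cultures grown here from mouse small intestine. In every group the organoids were Ythdf2fl/fl and carried both Villin-CreERT2 and Lgr5-EGFP-IRES-CreERT2. The floxed gene *Ythdf2* encodes a reader of m6A-modified messenger RNA, and CreERT2 is a Cre recombinase that 4-hydroxytamoxifen (4-OHT) activates. CreERT2 was driven by the villin promoter, active throughout the intestinal epithelium, and by the *Lgr5* locus, active in intestinal stem cells. Organoids received 4-OHT or its vehicle ethanol (EtOH), for which the series gives 0.5 µM. Cells positive for Lgr5-GFP were sorted on day 6 (2 libraries labelled EtOH and 2 labelled 4-OHT) or on day 4 (1 library of each label). There was no group without the floxed allele or without CreERT2. Nothing in the labels says that replicates came from separate cultures or animals, so p-values measure the spread between these libraries alone, which may be technical.

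Absorptive enterocytes take up fatty acids and monoacylglycerol from the gut lumen, rebuild them into triglyceride in the endoplasmic reticulum, and load the triglyceride onto apolipoprotein B with the microsomal triglyceride transfer protein. The resulting chylomicrons acquire apolipoproteins A-I, A-IV and C-III and leave the cell in COPII vesicles. Cholesterol enters through NPC1L1 and is returned to the lumen by the ABCG5/ABCG8 pair, and vitamin A is made from carotene, bound to RBP2 and esterified by LRAT. Most of these genes are strongly expressed in villus enterocytes and weakly in crypt stem cells.

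Libraries held 14345379 to 21461835 gene counts. Levels are given as CPM, the count of a gene scaled to the size of its library with TMM factors. The targeted gene *Ythdf2* stood at 82.8 and 76.0 CPM with EtOH on day 6, while the libraries labelled 4-OHT held 208 and 204 CPM. The day 4 pair held 76.0 CPM (EtOH) and 167 CPM (4-OHT). The whole-gene count therefore went against a loss of transcript in the libraries labelled 4-OHT. Counts per gene cannot show whether the floxed exon was lost, and every direction below is that of libraries named by their labels. *Lgr5*, the gene of the sorted reporter, was present in every library, at lower levels with the label 4-OHT. It stood at 250 and 345 CPM (EtOH) against 209 and 227 CPM (4-OHT) at day 6, and at 368 against 274 CPM at day 4. Its difference did not pass by edgeR (log2 fold change −0.45, SE 0.19, adjusted p 0.413 at day 6, and adjusted p 0.110 over both days). Of 16 enterocyte markers unrelated to lipid, 13 rose at day 6, where 2.27% of all genes tested did. Their summed level was 973 and 1238 CPM with EtOH on day 6 against 3177 and 2552 CPM with the label 4-OHT, and 826 against 1305 CPM at day 4. The summed level of 10 stem cell markers was 6276 and 5899 CPM against 4135 and 3829 CPM at day 6, and 5232 against 4467 CPM at day 4. Of the 10, 1 fell at day 6 by edgeR, where 0.235% of all genes tested did. At an unadjusted p under 0.05, 5 of the 10 were lower, as were 393 of all 14066 genes. Other epithelial types moved too. At day 4 Paneth cell markers summed to 491 CPM (EtOH) and 1834 CPM (4-OHT), and enteroendocrine markers to 59.2 and 260 CPM. At day 6 the Paneth sums were 3105 and 2211 CPM against 5114 and 2161 CPM, and 0 of 7 passed by edgeR (3 at an unadjusted p under 0.05). Enteroendocrine sums were then 440 and 352 CPM against 680 and 352 CPM, and 0 of 8 passed (1 unadjusted). Tuft cell markers summed to 31.1 and 18.5 CPM against 9.44 and 8.25 CPM at day 6, and 1 of the 4 tested fell (4 unadjusted). Goblet cell markers summed to 3094 and 3297 CPM against 2691 and 2464 CPM at day 6, and to 1965 against 2268 CPM at day 4. By edgeR 2 of the 8 rose at day 6, and 2 were lower at an unadjusted p under 0.05 only. The day 4 libraries stood apart from those of day 6, with 24195 and 26521 genes detected against 19522 to 20622, and 6.19% and 6.70% of reads outside any gene against 2.63% to 3.76%. Genes of cell handling stress summed to 2618 CPM in the day 4 EtOH library and to 1360 to 1464 CPM in the other 5. Immune markers summed to at most 8.51 CPM and mesenchymal and endothelial markers to at most 4.82 CPM, with *Itgax* at 0 in all 6 libraries and *Ptprc* and *Adgre1* at 0 in the 4 day 6 libraries. Hepatocyte markers, another possible source of apolipoprotein transcripts, summed to 12.8 to 30.3 CPM, mostly from *Ttr* and *Alb*, with no more than 4 counts of *Serpina1a*, *Ahsg* or *Tat* in any library. *Alb* was at 3.92 and 2.09 CPM with EtOH against 10.3 and 5.19 CPM at day 6, and its part in the apolipoprotein results was not tested. In these bulk samples a different number of cells of a type and a different RNA content per cell cannot be told apart, and the part of these markers in the differences below was not tested.

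About 1 in 3 of the lipid absorption genes tested rose in the libraries labelled 4-OHT at day 6, among them *Apoa1*, *Apoc3*, *Fabp1*, *Creb3l3*, *Rbp2*, *Abcg5* and *Lipa*. Together the 34 genes made up 1861 and 1782 CPM with EtOH on day 6, and 3856 and 3502 CPM where the label was 4-OHT. At day 4 their sum was 1814 CPM (EtOH) and 2421 CPM (4-OHT), so the sum was higher with the label 4-OHT on both days. At day 6, 31 of the 34 were abundant enough to be tested, and 11 of these rose while 0 fell (edgeR's quasi-likelihood test, p-values adjusted by Benjamini-Hochberg). Among all 14066 genes tested, 2.27% rose and 0.235% fell. The 31 genes had a median log2 fold change of 0.78, against −0.01 over all genes tested, and 30 of them were above 0. Of the 31, *Cd36* passed the count filter only through the libraries labelled 4-OHT, where it was high; the other 30 had the same median. No gene of the 31 was lower even at an unadjusted p under 0.05, and DESeq2 likewise called 15 higher and 0 lower. In 25 of the 31, both libraries labelled 4-OHT lay above both labelled EtOH, an arrangement seen in 20.4% of all genes tested. In a fit of the 6 libraries together that allowed for day, 14 of 30 genes rose and 0 fell, where 3.67% of all genes rose and 0.718% fell. The 2 comparisons share the day 6 libraries, and 10 genes passed in both.

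**Figure D1:**
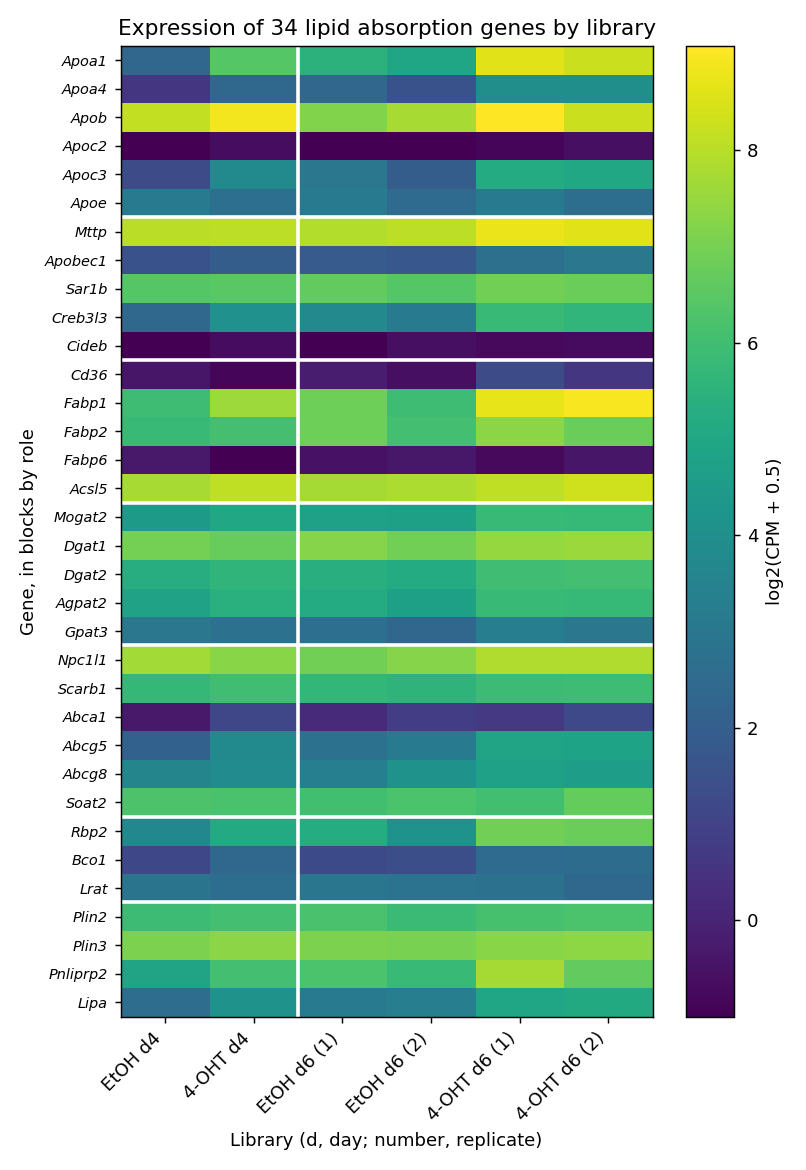
Expression of the 34 genes (rows, in blocks by role: apolipoproteins, chylomicron assembly, fatty acid uptake and binding, triglyceride synthesis, sterols, retinoids, lipid droplets and lipases) in the 6 libraries (columns), as log2 of CPM plus 0.5. The 2 rightmost columns, labelled 4-OHT at day 6, are the brightest for *Apoa1*, *Fabp1*, *Creb3l3*, *Rbp2* and *Lipa*, while *Apoc2*, *Cideb* and *Fabp6* are dark throughout.

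Levels between genes were compared per kilobase of exon. *Fabp1* was the most abundant of the 34, with a mean over the 6 libraries of 334 CPM per kb and a range of 90.4 to 740. *Fabp2* (101 CPM per kb) and *Apoa1* (84.7) followed, the latter spanning 2.61 to 232 CPM per kb. *Pnliprp2*, *Rbp2*, *Mttp*, *Acsl5* and *Npc1l1* lay between 55.6 and 40.2 CPM per kb, with ranges that overlapped one another. At the low end, *Abca1*, *Cideb*, *Cd36* and *Apoc2* stood under 0.1 CPM per kb. Large and small differences were found at every level: *Fabp2* and *Mttp* were abundant and did not pass the test at day 6, whereas *Lipa* at 2.32 and *Apoa4* at 3.98 CPM per kb rose.

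Promoter sequence was examined because 11 of the genes rose together. RefSeq starts (GRCm38.p6) were found for 28 of the 34 genes, and the 250 bases before each start were searched on both strands for CAAAGNNCA, a word shared by binding sites of HNF4 and of other nuclear receptors in the enterocyte. The word was present in 8 of the 32 promoters of these 28 genes, against 5.49% of all 32851 promoters in the table. Counted by gene, with any of its promoters sufficing, it lay upstream of 8 of the 28. Of the 9 genes that rose at day 6 and had an entry, 5 carried it. Those 5 are printed because they carry the word, and *Apoa1* and *Fabp1* because they were the most changed and the most abundant of the genes and lack it. Sequences run 5′ to 3′ on the strand of the gene, and capitals mark the word on either strand.
Apoa4 (chr9:46240594-46240843, plus strand): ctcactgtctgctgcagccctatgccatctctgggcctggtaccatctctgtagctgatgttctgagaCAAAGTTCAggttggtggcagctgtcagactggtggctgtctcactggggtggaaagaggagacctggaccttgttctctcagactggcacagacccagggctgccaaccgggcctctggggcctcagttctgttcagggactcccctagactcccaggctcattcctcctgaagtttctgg
Apob (chr12:7977427-7977676, plus strand): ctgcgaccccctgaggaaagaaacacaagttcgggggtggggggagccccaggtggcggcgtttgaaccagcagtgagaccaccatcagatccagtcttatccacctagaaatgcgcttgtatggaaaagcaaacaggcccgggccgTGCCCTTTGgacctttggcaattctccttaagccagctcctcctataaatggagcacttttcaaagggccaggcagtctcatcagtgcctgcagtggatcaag
Creb3l3 (chr10:81092592-81092841, minus strand): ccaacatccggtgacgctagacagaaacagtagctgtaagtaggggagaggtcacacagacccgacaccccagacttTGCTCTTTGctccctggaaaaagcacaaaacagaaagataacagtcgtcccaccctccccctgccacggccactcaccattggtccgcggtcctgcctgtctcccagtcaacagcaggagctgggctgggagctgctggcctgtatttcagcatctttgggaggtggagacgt
Abcg5 (chr17:84683012-84683261, minus strand): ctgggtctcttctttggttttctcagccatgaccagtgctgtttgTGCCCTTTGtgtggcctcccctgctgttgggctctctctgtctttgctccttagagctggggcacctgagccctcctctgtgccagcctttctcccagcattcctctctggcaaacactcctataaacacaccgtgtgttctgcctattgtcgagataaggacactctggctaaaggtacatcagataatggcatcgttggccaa
Rbp2 (chr9:98490287-98490536, plus strand): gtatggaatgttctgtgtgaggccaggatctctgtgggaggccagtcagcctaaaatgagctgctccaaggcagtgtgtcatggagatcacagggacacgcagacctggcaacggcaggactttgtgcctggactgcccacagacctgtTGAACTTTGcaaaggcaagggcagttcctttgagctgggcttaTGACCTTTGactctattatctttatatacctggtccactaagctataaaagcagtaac
Apoa1 (chr9:46228380-46228629, plus strand): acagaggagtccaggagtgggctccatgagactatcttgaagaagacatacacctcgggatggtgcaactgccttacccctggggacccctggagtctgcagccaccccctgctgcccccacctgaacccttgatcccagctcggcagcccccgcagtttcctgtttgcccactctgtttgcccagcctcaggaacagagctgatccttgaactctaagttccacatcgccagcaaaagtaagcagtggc
Fabp1 (chr6:71199629-71199878, plus strand): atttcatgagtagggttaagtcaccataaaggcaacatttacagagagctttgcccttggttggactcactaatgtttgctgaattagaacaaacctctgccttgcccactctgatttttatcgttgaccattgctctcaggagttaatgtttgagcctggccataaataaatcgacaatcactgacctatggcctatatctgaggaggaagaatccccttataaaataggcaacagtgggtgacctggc
*Rbp2* holds the word at 2 places and the other 4 genes at 1. *Creb3l3* has 2 starts in the table, and the word lies before the one shown. The remaining genes with the word were *Apobec1*, *Fabp2* and *Bco1*, which did not pass the test at day 6. The word AGATAA, read by GATA factors, lay upstream of *Creb3l3*, *Abcg5*, *Abcg8* and *Rbp2*, in 4 of the 32 promoters and 9.99% of all promoters. TATAAA lay upstream of 12 of the 28 genes, in 12 of the 32 promoters and 12.4% of all promoters. A match describes these letters in this window and is not evidence of binding, and the count files hold no measurement of any factor's binding.

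Of the 6 apolipoproteins 4 rose at day 6, by 2.33-fold to 9.53-fold, 1 did not pass and 1 was too low to test. *Apoa1* encodes the main protein of high density lipoprotein and lies on chromosome 9 at 46139878 to 46142212 (GRCm39). With EtOH its day 6 level was 43.7 and 30.1 CPM, and the libraries labelled 4-OHT reached 396 and 310 CPM. The day 4 libraries stood at 4.46 CPM (EtOH) and 84.4 CPM (4-OHT). The libraries of the 2 labels were far apart on both days, and the day 4 level with EtOH was also the lowest of the 6. The day 6 log2 fold change was 3.25 (SE 0.23), a 9.53-fold difference with an adjusted p of 1.0e-04 by edgeR's quasi-likelihood test. *Apoc3*, which encodes an inhibitor of lipoprotein lipase, was at 7.57 and 3.42 CPM with EtOH and 36.6 and 32.8 CPM in the libraries labelled 4-OHT at day 6, and had 39 and 195 counts at day 4. It rose by a log2 fold change of 2.64 (SE 0.33, adjusted p 0.00254, edgeR). *Apoa4*, made in enterocytes during fat absorption, was at 4.50 and 2.38 CPM against 15.2 and 15.6 CPM at day 6, and at 1.03 against 4.68 CPM at day 4. Its log2 fold change was 2.15 (SE 0.33, adjusted p 0.00745, edgeR). *Apoa1*, *Apoc3* and *Apoa4* are neighbours within 14.9 kb of chromosome 9 (GRCm39), and their rises were accompanied by at most 1 count in any library for *Apoa5*, the other apolipoprotein gene nearby. Of the exon bases of *Apoa4*, 69.8% overlap the antisense genes *Gm47528* and *Gm10680*, so that reads may be missing from its count.

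*Apob*, the structural protein of the chylomicron, was abundant and varied within each label. The day 6 libraries stood at 145 and 217 CPM with EtOH and at 541 and 305 CPM in those labelled 4-OHT, and the day 4 libraries at 285 and 479 CPM. The labels did not overlap on day 6, although the lower library labelled 4-OHT (305 CPM) lay close to the day 4 EtOH library. The log2 fold change was 1.22 (SE 0.27, adjusted p 0.0493, edgeR), at the edge of the threshold. It passed in 4 of 10 alternative analyses, whose adjusted p ran from 3.3e-07 to 0.374, and its log2 fold change was 0.75 without 4-OHT replicate 1 of day 6. *Apoe*, the ligand of lipoprotein receptors made by many cell types, did not follow the others, with 8.31 and 5.27 CPM against 8.09 and 5.73 CPM at day 6 and 8.72 against 5.97 CPM at day 4. The spread within a label exceeded the difference between labels on day 6 (log2 fold change 0.02, SE 0.33, adjusted p 0.992, edgeR). *Apoc2*, the activator of lipoprotein lipase, had 0 counts in each of the 3 libraries labelled EtOH and 1, 3 and 2 counts in those labelled 4-OHT. A count of 0 in the day 6 EtOH libraries allows up to 0.159 and 0.174 CPM, so that no difference was detectable at this depth.

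**Figure D2:**
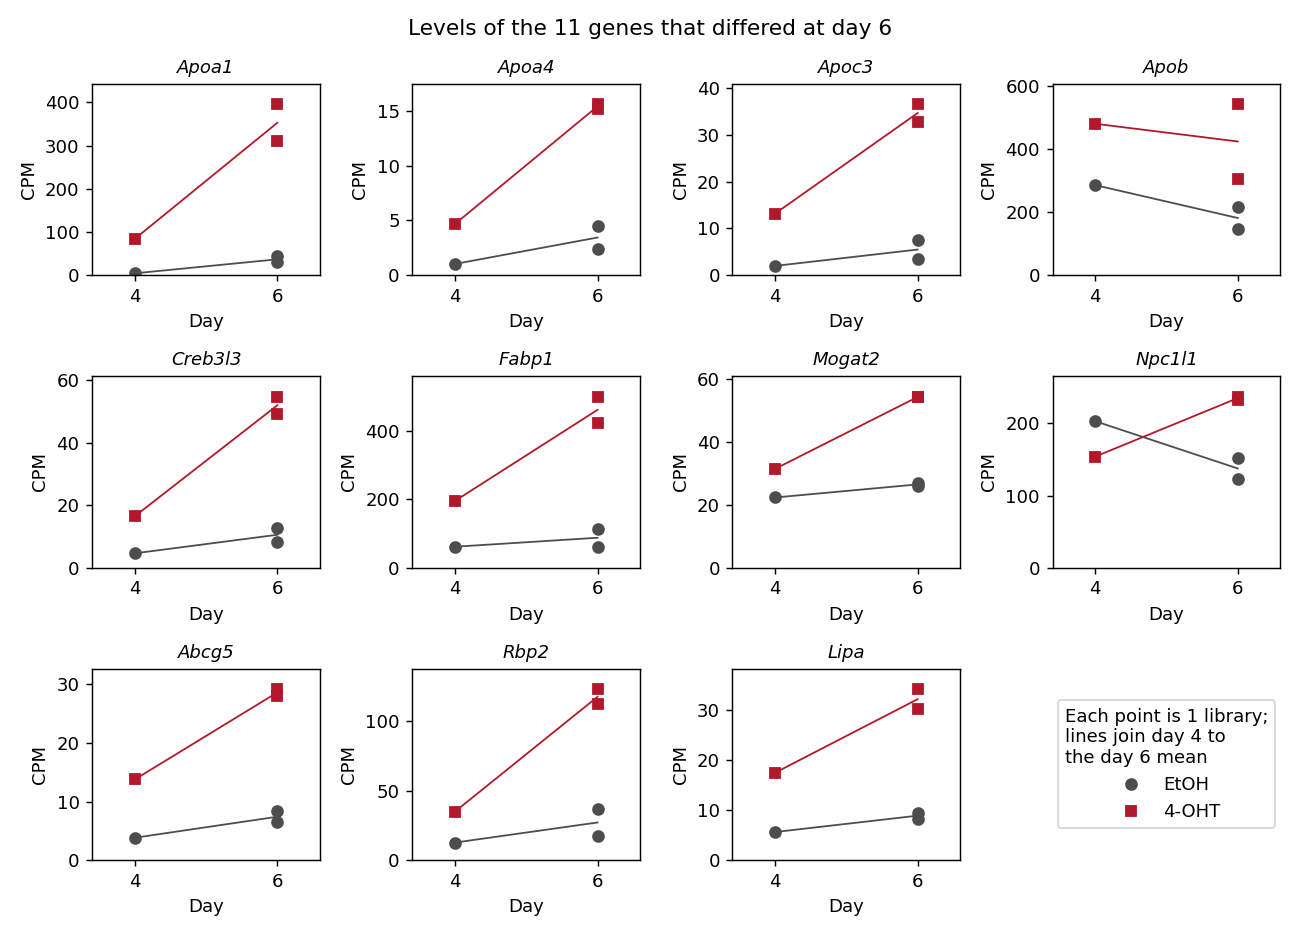
CPM (vertical axes, from 0) of the 11 genes that rose at day 6, by day (horizontal axes) and label. Each point is 1 library, and lines join the day 4 library to the day 6 mean; 4-OHT lies above EtOH on both days for every gene shown except *Npc1l1*, where the order at day 4 is the opposite.

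Of 4 genes of chylomicron assembly tested, 1 rose at day 6. This was *Creb3l3*, which encodes a membrane-bound transcription factor of lipid metabolism in liver and intestine, on chromosome 10 at 80920141 to 80934708 (GRCm39). It was at 12.8 and 8.29 CPM with EtOH and at 54.7 and 49.2 CPM in the libraries labelled 4-OHT at day 6, and at 4.61 and 16.5 CPM at day 4. All 3 libraries labelled 4-OHT lay above all 3 labelled EtOH, and the day 6 log2 fold change was 2.29 (SE 0.24, adjusted p 0.00118, edgeR). *Mttp* encodes the large subunit of the microsomal triglyceride transfer protein, which lipidates apolipoprotein B. It was at 244 and 269 CPM against 442 and 400 CPM at day 6, and at 264 against 270 CPM at day 4. The day 6 libraries were well separated, but edgeR's adjusted p was 0.0522 for a log2 fold change of 0.71 (SE 0.16), just short of the threshold. *Apobec1*, whose product edits *Apob* messenger RNA to give the short intestinal form, had 3.18 and 2.84 CPM against 6.09 and 7.44 CPM at day 6 (log2 fold change 1.16, SE 0.32, adjusted p 0.126, edgeR). *Sar1b*, the COPII GTPase needed for chylomicron export, had a log2 fold change of 0.32 (SE 0.16, adjusted p 0.575, edgeR). *Cideb*, a lipid droplet protein that takes part in lipoprotein lipidation, had at most 3 counts in any library, and 83.4% of its exon bases overlap *Nop9* and *Gm56758*.

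Of the fatty acid binding proteins, *Fabp1* rose, *Fabp2* did not pass the test and *Fabp6* was too low to test. *Fabp1*, the liver-type protein that carries fatty acids and their derivatives in enterocytes, lies on chromosome 6 at 71176809 to 71182016 (GRCm39). On day 6 it stood at 114 and 60.9 CPM with EtOH and at 422 and 499 CPM with the label 4-OHT, and on day 4 at 61.3 and 195 CPM. Its log2 fold change was 2.39 (SE 0.27, adjusted p 0.00163, edgeR), a 5.24-fold difference. *Fabp2*, the intestinal-type protein, was at 115 and 67.1 CPM against 162 and 113 CPM at day 6. Its labels overlapped, since EtOH replicate 1 (115 CPM) lay above 4-OHT replicate 2 (113 CPM), and the log2 fold change was 0.59 (SE 0.26, adjusted p 0.465, edgeR). With EtOH at day 6 the pair were close in CPM, with means of 87.5 ± 37.7 for *Fabp1* and 91.2 ± 34.1 for *Fabp2* (SD, n = 2 each). In the libraries labelled 4-OHT the means were 460 ± 54.6 and 137 ± 34.2 CPM (SD, n = 2 each). *Fabp6*, the bile acid binding protein of the ileum, had 0 to 6 counts per library and was not tested. *Cd36*, a fatty acid translocase, had 7 and 3 counts with EtOH and 42 and 19 in the libraries labelled 4-OHT at day 6, and 5 and 1 at day 4. At these counts the day 6 change was 2.42 on the log2 scale (SE 0.71), short of the threshold (adjusted p 0.147, edgeR). *Acsl5*, which activates fatty acids to acyl-CoA, was among the more abundant genes, with 212 and 228 CPM against 276 and 330 CPM at day 6. Its libraries did not overlap by label, but its change of 0.46 on the log2 scale (SE 0.17) was short of the threshold (adjusted p 0.300, edgeR). Of its exon bases 37.3% overlap *Zdhhc6*.

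For the 5 triglyceride synthesis enzymes among the 34 genes, both day 6 libraries labelled 4-OHT lay above both labelled EtOH, as for 20.4% of all genes, and 1 of the 5 rose at day 6. That 1 was *Mogat2*, the monoacylglycerol acyltransferase of the intestinal pathway (chromosome 7, 98868291 to 98887830, GRCm39). Its replicates were tight, at 26.8 and 26.1 CPM with EtOH against 54.3 and 54.1 CPM at day 6, and it stood at 22.3 and 31.4 CPM at day 4. The log2 fold change was 1.03 (SE 0.18, adjusted p 0.0141, edgeR). Without EtOH replicate 1 the adjusted p was 0.0562, the highest of a range from 3.3e-05 over 10 alternatives. *Dgat2*, which adds the last acyl chain, was at 40.2 and 36.7 CPM against 62.4 and 67.3 CPM at day 6 and at 37.9 against 48.1 CPM at day 4. *Agpat2*, which acylates lysophosphatidic acid, was at 36.7 and 26.3 CPM against 54.8 and 54.0 CPM at day 6 and at 27.8 against 41.7 CPM at day 4. These 2 genes missed the threshold at day 6 (adjusted p 0.0547 and 0.0959, edgeR) and rose over both days, by log2 fold changes of 0.62 (SE 0.13, adjusted p 0.0265) and 0.72 (SE 0.15, adjusted p 0.0229). *Dgat1*, the other diacylglycerol acyltransferase, was at 150 and 123 CPM against 178 and 189 CPM at day 6 and at 125 against 107 CPM at day 4, and did not pass (adjusted p 0.371). *Gpat3*, a glycerol-3-phosphate acyltransferase, had a log2 fold change of 0.70 (SE 0.30, adjusted p 0.458, edgeR). Exon bases shared with other genes came to 54.6% for *Dgat1*, 37.5% for *Gpat3* and 24.2% for *Agpat2*.

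For sterols, the export gene *Abcg5* showed the largest rise at day 6. It encodes one subunit of the transporter that returns cholesterol and plant sterols to the lumen and lies on chromosome 17 at 84964851 to 84990494 (GRCm39). Its level was 6.46 and 8.40 CPM against 29.2 and 28.1 CPM at day 6, and 3.84 against 13.8 CPM at day 4. The log2 fold change was 1.94 (SE 0.24, adjusted p 0.00237, edgeR). *Abcg8*, the gene of the partner subunit, is transcribed in the opposite direction from the same region, and 109 bases are common to the upstream windows of the pair. *Abcg8* was at 9.74 and 17.6 CPM against 27.0 and 24.4 CPM at day 6, and at 11.5 against 14.0 CPM at day 4. Its EtOH replicates differed more than those of *Abcg5*, and its change of 0.91 on the log2 scale (SE 0.28) was short of the threshold (adjusted p 0.182, edgeR). Whether the pair differed from each other was not tested. *Npc1l1*, the cholesterol importer that ezetimibe inhibits (chromosome 11, 6161013 to 6180242, GRCm39), was at 123 and 152 CPM with EtOH and 233 and 237 CPM in the libraries labelled 4-OHT at day 6. At day 4 the order was the opposite, with 203 CPM (EtOH) and 154 CPM (4-OHT). Its day 6 log2 fold change was 0.77 (SE 0.17, adjusted p 0.0410, edgeR), and it passed in 5 of 10 alternatives, with adjusted p from 0.00140 to 0.181. Over both days *Npc1l1* did not pass (log2 fold change 0.39, SE 0.21, adjusted p 0.418, edgeR). *Scarb1*, a receptor for high density lipoprotein, and *Soat2*, which esterifies cholesterol, had day 6 log2 fold changes of 0.33 (SE 0.17) and 0.26 (SE 0.22) that did not pass. *Abca1*, which exports cholesterol to apolipoprotein A-I, had only 6 to 34 counts per library and a day 6 log2 fold change of 0.57 (SE 0.55, adjusted p 0.844, edgeR). At day 4 it had 6 counts (EtOH) and 25 counts (4-OHT), a ratio of 5.52 with a 95% interval of 2.21 to 16.4 from counting error. Its day 6 value minus that of day 4 was −1.86 (SE 1.15, unadjusted p 0.135, edgeR).

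Of the 3 retinoid genes 1 rose at day 6. This was *Rbp2*, the retinol carrier of the enterocyte, on chromosome 9 at 98368121 to 98391834 (GRCm39). It was at 37.0 and 17.3 CPM with EtOH and at 123 and 112 CPM in the libraries labelled 4-OHT at day 6, and at 12.7 and 35.0 CPM at day 4. Each day separated the labels, while the day 4 library labelled 4-OHT lay just under EtOH replicate 1 of day 6. The day 6 log2 fold change was 2.11 (SE 0.30, adjusted p 0.00499, edgeR). *Bco1*, which cleaves carotene, was at 1.91 and 2.14 CPM against 5.21 and 5.41 CPM at day 6 and at 1.79 against 4.82 CPM at day 4. It missed the threshold at day 6 (adjusted p 0.0834, edgeR) and rose over both days (log2 fold change 1.40, SE 0.25, adjusted p 0.0127). *Lrat*, which stores retinol as esters, was the 1 gene of the 31 with a negative day 6 value. It was at 7.25 and 6.61 CPM against 6.51 and 4.82 CPM at day 6 and at 6.92 against 5.70 CPM at day 4. All 3 libraries labelled 4-OHT lay below all 3 labelled EtOH, as in 9.02% of all genes, but the change of −0.29 on the log2 scale (SE 0.30) was within the error (adjusted p 0.860, edgeR).

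Of the 2 lipases and 2 lipid droplet coat genes, 1 rose at day 6. This was *Lipa*, the lysosomal acid lipase that releases cholesterol and fatty acids, on chromosome 19 at 34469712 to 34522163 (GRCm39). It was at 8.31 and 9.51 CPM against 30.2 and 34.2 CPM at day 6 and at 5.64 against 17.5 CPM at day 4, with a log2 fold change of 1.85 (SE 0.22, adjusted p 0.00221, edgeR). Its value was stable, from 1.75 to 1.95 over 10 alternatives, in each of which it passed. *Pnliprp2*, a pancreatic-type lipase of galactolipids and other lipids, was at 73.7 and 56.7 CPM against 209 and 99.8 CPM at day 6 and at 28.7 against 66.9 CPM at day 4. The libraries labelled 4-OHT differed about as much from each other as from EtOH, and the gene missed the threshold at day 6 (log2 fold change 1.24, SE 0.30, adjusted p 0.0665, edgeR). It rose over both days (adjusted p 0.0164). At day 6 the log2 fold change was 0.15 (SE 0.18) for the droplet coat gene *Plin2* and 0.24 (SE 0.15) for *Plin3*, and neither passed. *Plin2* labels overlapped, at 73.0 and 58.4 CPM against 71.2 and 74.9 CPM.

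**Figure D3:**
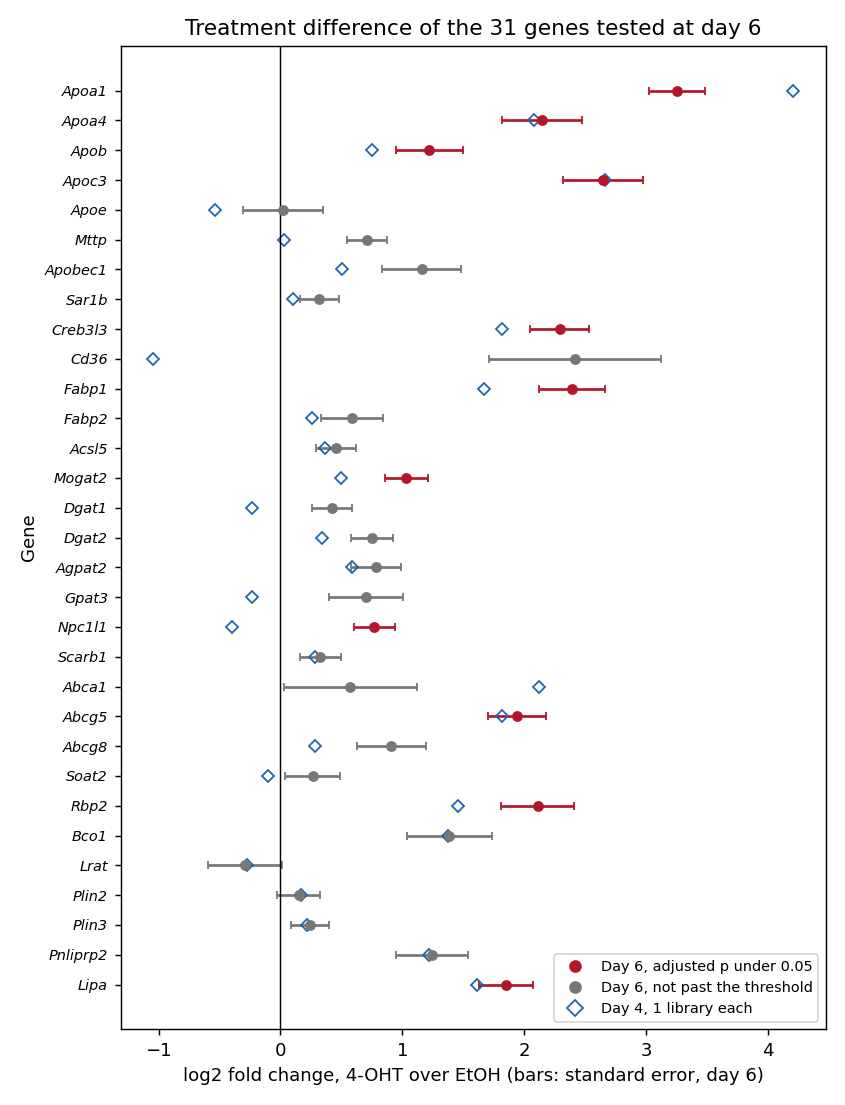
Log2 fold change of the libraries labelled 4-OHT over those labelled EtOH (horizontal axis) for the 31 genes tested. Filled circles with standard error bars are day 6 (red where the adjusted p was under 0.05) and open diamonds are day 4, with 1 library per label. Diamonds lie near the circles for *Apoc3*, *Apoa4*, *Abcg5* and *Lipa*, and left of 0 for *Npc1l1*, *Dgat1*, *Gpat3* and *Cd36*.

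Day 4 and day 6 were then compared gene by gene, to ask which steps differed early. Day 4 has 1 library per label, so its values compare those libraries and carry no test. The EtOH library of that day was also the one with the high stress genes and low Paneth markers. Intervals given for their ratios cover counting error only. Of 30 genes whose day 4 mean reached 1 CPM, the library labelled 4-OHT exceeded EtOH by 2-fold or more for 11 and fell short of it by as much for 0, where 4.63% of all genes were that much higher and 1.40% that much lower. Of the 11 genes that rose at day 6, 8 were at least 2-fold higher at day 4. The day 4 ratio was 18.9 for *Apoa1* (95% interval 15.2 to 23.8), 6.62 for *Apoc3* (4.67 to 9.59) and 4.57 for *Apoa4* (2.74 to 7.93). It was 3.60 for *Abcg5*, 3.57 for *Creb3l3*, 3.18 for *Fabp1*, 3.11 for *Lipa* and 2.77 for *Rbp2*. The remaining 3 were *Apob* at 1.68, *Mogat2* at 1.41 (1.23 to 1.61) and *Npc1l1* at 0.758 (0.720 to 0.799). Thus the apolipoproteins A-I, A-IV and C-III and their companions were higher with the label 4-OHT than with EtOH on both days. The triglyceride enzymes, *Mttp* and *Npc1l1* had small or opposite day 4 values. For *Apoa1*, *Apoa4*, *Apoc3*, *Creb3l3*, *Abcg5*, *Rbp2* and *Lipa*, the day 4 EtOH library was the lowest of all libraries. Their large day 4 ratios therefore rest in part on that library. Of the 31 genes, 24 were above EtOH at day 4 and 7 below, where 7033 of all 14066 genes tested were above. Both day 6 libraries labelled 4-OHT lay above EtOH in 20.4% of all genes, and the day 4 library did so as well in 16.2%. Among the 31, 21 had this order on both days. Another 4 had both day 6 libraries labelled 4-OHT above EtOH but the day 4 library below it (*Npc1l1*, *Dgat1*, *Gpat3* and *Cd36*).

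The difference between days was tested directly, as the day 6 log2 fold change minus that of day 4, in a fit of all 6 libraries in 4 groups. By the edgeR quasi-likelihood test 0 of 30 genes passed after adjustment, as did 0% of all genes (0 of 14060), and DESeq2 called 0 of the 30. An unadjusted p under 0.05 was reached by 4 of the 30 genes and by 228 of all 14060 (edgeR). A positive difference was found for 23 of the 30 (median 0.28), against 7008 of all 14060 genes (median −0.00087). The difference was 1.17 (SE 0.29) for *Npc1l1*, with an unadjusted p of 0.00214 and an adjusted p of 1.00 by edgeR. It was 0.68 (SE 0.28) for *Mttp*, 0.66 (SE 0.29) for *Dgat1* and, in the other direction, −0.98 (SE 0.39) for *Apoa1*. For *Apoc3*, *Apoa4*, *Bco1* and *Pnliprp2* the difference lay between −0.07 and 0.03, with standard errors of 0.51 to 0.63, so that the test had little power for small differences between days. The library names come from a different number series on each day, so that the day and the library series cannot be told apart.

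Other genes of lipid handling, from 8 lists, were read from the same day 6 test where 2.27% of all genes rose and 0.235% fell. Of 8 bile acid transport and signalling genes tested, 3 rose. Of these *Fgf15* passed the count filter only through the libraries labelled 4-OHT, and without it 2 of 7 rose, with 7 above 0 and a median log2 fold change of 0.97. *Fgf15*, the ileal hormone that restrains bile acid synthesis in liver, had 8 and 3 counts with EtOH and 146 and 67 in the libraries labelled 4-OHT at day 6, and 2 and 27 at day 4 (day 6 log2 fold change 4.07, SE 0.60, adjusted p 0.00617, edgeR). *Slc10a2*, the apical bile acid importer, had 14 and 11 counts against 124 and 49 (2.60, SE 0.54, adjusted p 0.0360). *Slc51a*, a subunit of the basolateral exporter, was at 5.30 and 5.22 CPM against 16.4 and 11.7 CPM (log2 fold change 1.42, SE 0.29, adjusted p 0.0313). These are partners of the ileal *Fabp6*, which stayed at 0 to 6 counts. Of the exon bases of *Fgf15* and *Slc51a*, 25.7% and 25.2% overlap other genes.

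Among 11 other retinoid genes tested, 2 rose, the retinol dehydrogenases *Dhrs9* (log2 fold change 3.16, SE 0.54, adjusted p 0.0140, edgeR) and *Rdh7* (1.51, SE 0.28, adjusted p 0.0196). *Dhrs9* had 7 and 5 counts against 70 and 52 at day 6, so that it too passed the filter only where it was high. Without it 1 of 10 rose. In the chylomicron trafficking list 1 of 17 rose, close to the share of all genes. This was *Tm6sf2*, whose product takes part in lipidation of lipoproteins, from 41.3 and 42.7 CPM to 70.8 and 84.1 CPM (0.88, SE 0.17, adjusted p 0.0283). The list's median was 0.03. *Plin5*, of the lipid droplet turnover list, passed the count filter only through the libraries labelled 4-OHT. In that list 0 of 10 rose and 1 fell. This was *Mgll*, the monoacylglycerol lipase that competes with MOGAT2 for substrate, which went from 4.92 and 6.78 CPM to 2.05 and 1.34 CPM at day 6 and had a day 4 value of −2.20 (day 6 log2 fold change −1.77, SE 0.39, adjusted p 0.0428, edgeR). Among 20 transcription factors 1 rose, again close to the share of all genes, namely *Klf15* (2.01, SE 0.39, adjusted p 0.0243), a zinc finger factor of fasting metabolism. At an unadjusted p under 0.05 (edgeR), 5 of the 20 were higher and 0 lower, and 1453 of all 14066 genes differed in either direction. *Hnf4a*, the main nuclear receptor of enterocyte genes, changed by 0.01 on the log2 scale (SE 0.18) and *Hnf4g* by 0.59 (SE 0.22). *Ppara* changed by 0.91 (SE 0.25, adjusted p 0.122, edgeR). None of these passed, and they were chosen after their values were seen.

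Cholesterol synthesis did not share the direction of the absorption genes. Of 18 targets of SREBP2, the factor that drives sterol synthesis and uptake when cell cholesterol is low, 17 had a negative day 6 value. Their median log2 fold change was −0.31, and 7288 of all 14066 genes tested were negative. In 14 of the 18 both libraries labelled 4-OHT lay below both labelled EtOH, against 18.4% of all genes. By edgeR 0 passed after adjustment, and DESeq2 called 1 lower. An unadjusted p under 0.05 by edgeR was reached by 5, all lower, and 393 of all 14066 genes were lower at that threshold. In the fatty acid import list 0 of 10 passed by edgeR, with 0 at an unadjusted p under 0.05 and 0 by DESeq2. Among other glycerolipid enzymes 0 of 12 passed by edgeR, with 2 at an unadjusted p under 0.05, 1 in each direction, and 0 by DESeq2. That list holds further enzymes of triglyceride synthesis, with 5 values above 0, 7 below and a median of −0.03. *Lpin1*, which makes diacylglycerol, was at 50.7 and 69.2 CPM against 37.8 and 40.0 CPM (adjusted p 0.190, edgeR). The acyltransferase *Gpat4* was at 101 and 87.6 CPM against 78.2 and 75.7 CPM (adjusted p 0.625, edgeR). Above 0 were *Lpin2* (log2 fold change 0.38, SE 0.19), *Lpin3* (0.43, SE 0.18) and *Agpat4* (0.64, SE 0.42). None of these passed, and they were chosen after their values were seen. Across the 8 lists, 7 genes rose and 1 fell at day 6. Of the 7, *Fgf15* and *Dhrs9* had passed the count filter only through the libraries labelled 4-OHT, where they were high. The number called fell when EtOH replicate 1 of day 6 was left out, and so did the number called among all genes tested.

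**Figure D4:**
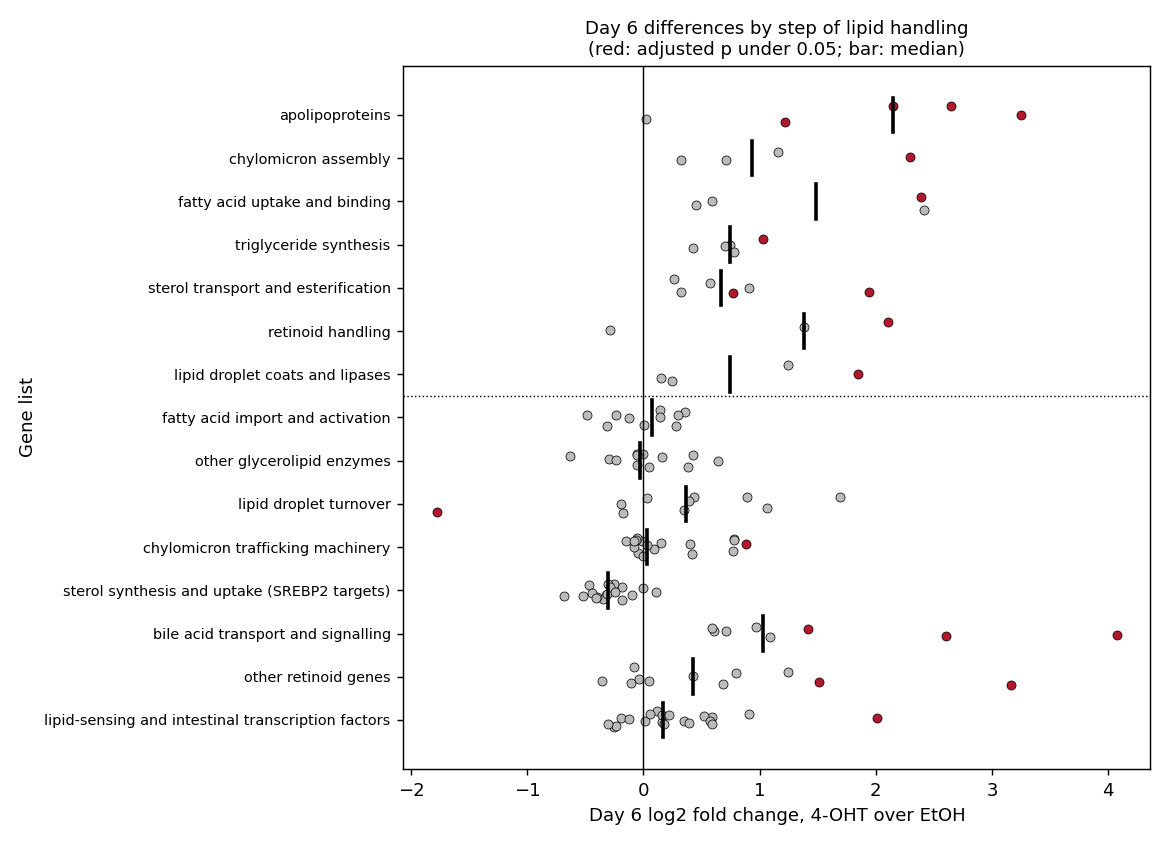
Day 6 log2 fold change (horizontal axis) of each gene tested, by step of lipid handling (rows). Rows above the dotted line hold the 31 genes tested of the 34, and those under it the 8 other lists. Points are genes, red where the adjusted p was under 0.05, and vertical bars are list medians. Apolipoproteins (median 2.15) and bile acid genes (1.03, or 0.97 without *Fgf15*) lie to the right, and SREBP2 targets (−0.31) lie mostly left of 0.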

How the data were processed

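The authors deposited 1 file of whole-number counts per gene for each library, without normalization. STAR and the build mm39 are named in the submitters' processing notes, and the annotation release and strand setting are not given in the sources used here. Lines that name no gene (reads unmapped, multiply mapped or not assigned to 1 gene, 19.3% to 26.7% of entries) were left out, so reads may be missing from genes that overlap others. Symbols, positions and exon lengths came from GENCODE M39 (GRCm39), which matched 56323 of 56884 identifiers, and upstream sequences from RefSeq (GRCm38.p6). Of the genes listed, 1 (*Vamp7*) was not analysed here.

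Libraries were grouped by the label's treatment and day. A chi-square per degree of freedom of 36.0 (EtOH) and 25.0 (4-OHT) showed that the day 6 replicates differed by more than sampling noise. Counts were tested over all genes with edgeR 4.0.16 (glmQLFit with legacy set to FALSE, glmQLFTest) in R 4.3.3, with TMM scaling, filterByExpr and Benjamini-Hochberg adjustment, and genes with an adjusted p under 0.05 were counted. Standard errors were taken as the size of the log2 fold change over the root of its F statistic. The day 6 test used 4 libraries, the test over both days all 6 with day as a term, and the test between days all 6 in 4 groups. Day 4 values are log2 ratios with a prior count of 2. Intervals are exact binomial (95%) and, like the limit that a count of 0 allows (3 counts), cover counting error only.

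The 34 genes and all lists were chosen with earlier results of these data known. Genes described library by library were those with an adjusted p under 0.05 at day 6 or over both days, with at least 1 further gene per role, and at most the 3 largest called changes per list and direction. The alternatives tried were no filter, median-of-ratios scaling, DESeq2 1.42.0, a replicate block, all 6 libraries in 4 groups, no day term, a prior count of 0.5, scaling by totals and leaving out each library. The earlier edgeR quasi-likelihood method was added after seeing the data. The tests were checked on simulated counts, where false calls were above the nominal share in each comparison (11.3% of calls at day 6). Of simulated 2-fold differences, 46.0% were recovered at day 6, 66.0% over both days and 9.75% between days. Calls near the threshold (*Apob*, *Npc1l1*, *Mgll*), genes that did not pass at day 6 and the absence of calls between days are to be read with these limits.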

Additional observations from a re-analysis of the deposited data

Results flagged for a closer look

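*Cd36* is given here because its day 4 libraries stood in the opposite order to its day 6 libraries. Both day 6 libraries labelled 4-OHT (42 and 19 counts) lay above both labelled EtOH (7 and 3 counts), while the day 4 library labelled 4-OHT had 1 count against 5 with EtOH, a log2 fold change of −1.05. The day 4 ratio was 0.265 with a 95% interval of 0.00560 to 2.37 from counting error, and the difference between days was not tested, since the gene fell under the count filter with all 6 libraries.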

How the results depend on the processing

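The 11 genes called at day 6 were 9 to 15 under scaling, filter, DESeq2, the 4-group analysis and the earlier edgeR method, and 8 to 12 when 1 library was left out, always with 0 lower. A replicate block raised the count to 20, and that of the other lipid lists from 8 to 21 (839 of all genes in place of 353). Same-numbered libraries had correlated deviations (0.266), but with 2 pairs and no statement in the labels the numbers were not taken to pair them. Leaving out a library gave 1 to 8 for those lists. Without a library an arm holds 1 library, assumed to vary like the others. Without a day term 6 genes rose over both days, in place of 14, and leaving out a library gave 11 to 13. The test between days gave 0 genes of the 30 throughout. Of all genes, filtering none gave 292 calls at day 6 and DESeq2 505. Among 309 single-gene values at day 6, 276 kept their direction and side of the threshold, 12 lost and 17 gained the call, and 4 changed sign. These were *Apoe* (0.39 without EtOH replicate 1, −0.27 without EtOH replicate 2 and −0.25 without 4-OHT replicate 1), *Plin2* (0.32 without EtOH replicate 1, −0.0042 without EtOH replicate 2) and *Soat2* (0.56 without 4-OHT replicate 1, −0.12 without 4-OHT replicate 2), none of which had passed. Depth limits *Apoc2*, *Cideb*, *Fabp6*, *Cd36* and *Abca1*, and 1 library per label limits day 4.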
